A study of Solanum lycopersicum with 30 samples.

Results

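HSP17.4 and HSC80 are 2 genes for heat shock proteins among the 802 genes that carry a symbol on the Affymetrix tomato array, and each is read by 1 probe set of the 10038 that are not controls. They were taken by symbol from the platform annotation, and the pair was chosen by their measured log2 signals over the 6 groups described here, so their levels and differences are given as a description with no test. Root RNA of tomato (Solanum lycopersicum) was hybridised to 30 arrays, 5 biological replicates per group, 1 array per sample. The groups cross rmc, a mutant with reduced mycorrhizal colonization, and wild type (WT) plants with a soil patch that received water, low nitrogen or high nitrogen (low N and high N), both as ammonium. All plants were 8 weeks old when moved to field soil, grew there for 5 weeks, and had the roots of the injected patch cut 24 h after the injection. The labels give the ammonium as 6.5 and 65 ppm for rmc but as 10 and 100 µM for WT, so a genotype difference in low N or high N also carries a difference in the labelled dose. The sources used here give neither the rmc allele nor the relation of the WT line to it.

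Heat shock proteins are chaperones, which keep other proteins folded. Small heat shock proteins such as HSP17.4 form oligomers that hold unfolding proteins without ATP, and in plants many of them are nearly silent until heat stress factors switch them on. HSC80 belongs to the HSP90 family, ATP-driven dimers that bring kinases, receptors and immune receptors to their active shape. A cognate (HSC) form is one made without heat.

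HSP17.4 was far lower in rmc roots than in WT roots, whatever the patch had received. In water it read 3.02, 3.74, 4.13, 5.88 and 5.07 (log2 MAS5 signal, replicates 1 to 5) in rmc, against 8.78, 8.89, 8.00, 7.91 and 7.80 in WT. In low N it read 2.77, 2.75, 3.41, 5.25 and 5.09 in rmc, against 8.40, 8.91, 7.59, 9.12 and 9.00 in WT. In high N it read 3.34, 3.25, 3.13, 4.12 and 4.58 in rmc, against 9.56, 8.33, 5.99, 9.00 and 6.50 in WT. The genotypes did not overlap in any treatment, and the highest rmc array (5.88, water) lay under the lowest WT array (5.99, high N). Among all 7528 probe sets tested, 0.146% had every rmc array below every WT array, and within water, low N and high N alone the shares were 1.98%, 2.75% and 1.32% (2.64%, 4.49% and 2.35% when a higher rmc counts too).

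The difference of means, rmc minus WT on the log2 scale, was -3.91 in water (SE 0.62, 95% interval -5.18 to -2.64), -4.75 in low N (-6.02 to -3.48) and -4.19 in high N (-5.46 to -2.92). Averaged over treatments it was -4.28 (SE 0.36, 95% interval -5.02 to -3.55), a 19.5-fold lower signal in rmc. That value was the lowest among the 690 tested probe sets with a gene symbol and the fifth lowest of all 7528. Of the 15 rmc arrays, 6 read at or under 3.36, the highest reading of 23 negative-control probe sets on any array, while 0 of 15 WT arrays did. The rmc mean of 3.97 ± 1.00 (SD, n = 15) is therefore close to the bottom of what the array resolves, against 8.25 ± 0.99 in WT. With every signal under 5 set to 5 the difference shrank to -3.17. The probe set passed the filter on dim probe sets (a mean of at least 5.612 over all arrays) through its WT arrays, with a mean of 6.11 over all 30. In a whole root, fewer cells that make a transcript and less of it per cell cannot be told apart. The gene is read by 1 probe set, and whether its probes match the rmc transcript as well as that of WT could not be checked here.

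**Figure D1:**
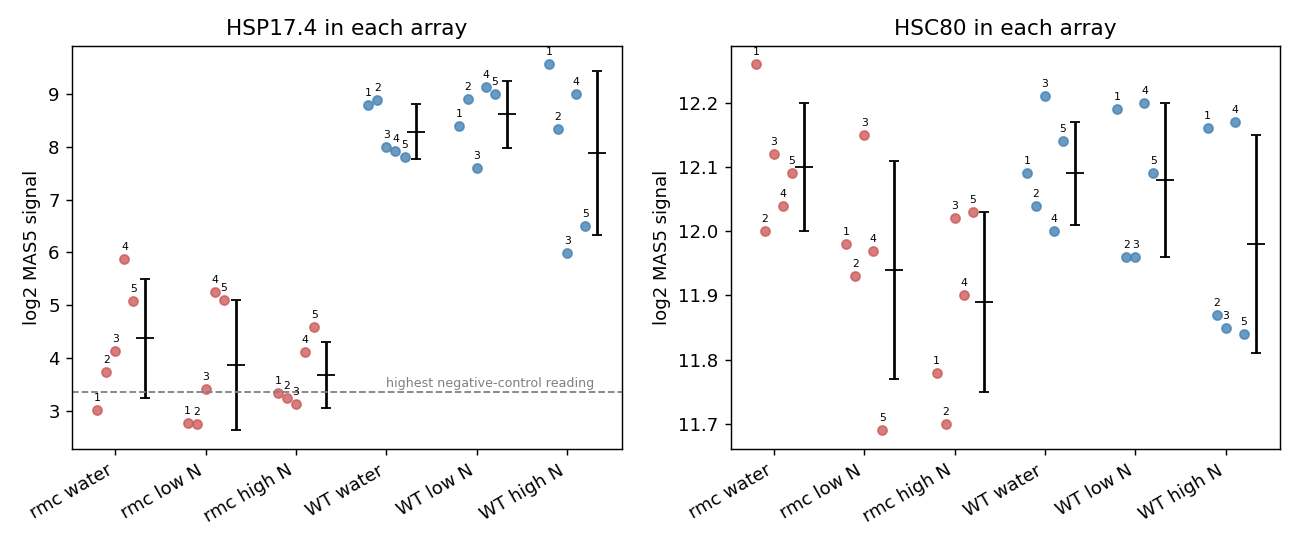
Log2 MAS5 signal of HSP17.4 (left) and HSC80 (right) on each of the 30 arrays, by group, with replicate numbers beside the points, and the mean and SD of each group in black. All rmc points of HSP17.4 lie below all WT points and several reach the dashed line at 3.36, the highest negative-control reading, whereas the HSC80 groups overlap within 11.69 to 12.26 (the axes differ and do not start at 0).

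Ammonium moved the mean of HSP17.4 by less than its pooled SD within groups (1.02) in either genotype, though not by less than the SD of every single group. In rmc the means were 4.37 ± 1.12 in water, 3.86 ± 1.23 in low N and 3.68 ± 0.63 in high N (log2 signal, SD, n = 5). In WT they were 8.28 ± 0.52, 8.61 ± 0.63 and 7.88 ± 1.56 in the same order. Every N group overlapped its water group, where 0.452% (low N) and 3.52% (high N) of all probe sets had groups apart in rmc and 1.71% and 17.7% in WT.

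Against water, low N differed by -0.51 in rmc (95% interval -1.78 to 0.76) and by 0.33 in WT (-0.94 to 1.60), and high N by -0.68 in rmc (-1.95 to 0.59) and by -0.40 in WT (-1.67 to 0.87). These intervals are wide, and changes of more than 3-fold in either genotype lie within them (the WT low N interval reaches 3.03-fold). The N response of rmc minus that of WT was -0.84 at low N (-2.64 to 0.96) and -0.28 at high N (-2.08 to 1.51). The WT high N group spread over 3.57 log2 units, with replicates 3 and 5 at 5.99 and 6.50 and the other arrays at 8.33 to 9.56. Without WT high N replicate 3 the high N difference in WT became 0.07. With every signal under 5 set to 5, the rmc differences shrank to -0.12 in low N and -0.19 in high N. With each array scaled to the poly-A spikes described below, high N minus water was 0.20 in rmc and -0.06 in WT. Low N minus water was then -0.20 in rmc and 0.49 in WT.

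HSP17.4 was among the more variable transcripts. Its pooled SD within groups was 1.02, and 97.5% of the probe sets tested had a smaller one (median 0.23). Replicates 4 and 5 were the 2 highest arrays in 3 of 3 rmc groups and in 1 of 3 WT groups. Of the other heat shock probe sets, Hsp90-1 and vis1 had these 2 arrays highest in 3 of 3 rmc groups (in 2 and 1 of 3 WT groups), and MTSHP and ER-SHSP in 2 of 3 in each genotype. HSC80, HSP21 and the first FKBP12 probe set had them highest in 0 of 3 groups of either genotype, and CLPP2, HSP17-6 and the second FKBP12 probe set in 1 of 3 rmc and 0 of 3 WT groups. The labels do not say what a replicate number stands for.

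The signal of HSC80 was bright and varied little in all groups. In rmc it read 12.26, 12.00, 12.12, 12.04 and 12.09 (log2 signal) in water, 11.98, 11.93, 12.15, 11.97 and 11.69 in low N, and 11.78, 11.70, 12.02, 11.90 and 12.03 in high N. In WT it read 12.09, 12.04, 12.21, 12.00 and 12.14 in water, 12.19, 11.96, 11.96, 12.20 and 12.09 in low N, and 12.16, 11.87, 11.85, 12.17 and 11.84 in high N. All arrays lay between 11.69 and 12.26, and the rmc and WT groups of each treatment overlapped, as did the N and water groups of each genotype. Its pooled SD of 0.13 was larger than that of only 15.2% of the probe sets tested. These readings lay near the top of the signals in the data. Whether the array still resolves differences in transcript at that brightness was not tested, so the small spread describes the signal.

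The rmc and WT means of HSC80 differed by 0.01 in water (95% interval -0.16 to 0.18), -0.14 in low N (-0.31 to 0.03) and -0.09 in high N (-0.26 to 0.08). Over treatments rmc minus WT was -0.07 (SE 0.05, 95% interval -0.17 to 0.03) on the deposited scale, and -0.20 (SE 0.10) with each array scaled to the poly-A spikes described below. Between the patches the order of means was the same in both genotypes. In rmc they were 12.10 ± 0.10 in water, 11.94 ± 0.17 in low N and 11.89 ± 0.14 in high N, and in WT 12.09 ± 0.08, 12.08 ± 0.12 and 11.98 ± 0.17 (SD, n = 5). Neighbours in this order overlapped in every case.

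High N minus water was -0.22 in rmc (SE 0.08, 95% interval -0.39 to -0.04) and -0.11 in WT (SE 0.08, -0.29 to 0.06). Over both genotypes it was -0.17 (SE 0.06, -0.29 to -0.04), a fold of 0.892, and 8 of 10 high N arrays lay below the water mean of their genotype. Low N minus water was -0.16 in rmc (-0.33 to 0.01) and -0.01 in WT (-0.18 to 0.16). The N response of rmc minus that of WT was -0.15 at low N (-0.39 to 0.09) and -0.10 at high N (-0.34 to 0.14).

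Some control readings also differed between the patches, and others did so less. The poly-A spikes, control RNAs added before amplification, averaged 8.83 ± 0.24 in water, 8.51 ± 0.23 in low N and 7.95 ± 0.57 in high N in rmc, and 8.47 ± 0.12, 8.31 ± 0.33 and 8.13 ± 0.19 in WT (log2, SD, n = 5). The 3' minus 5' difference of the GAPDH probe sets, a measure of transcript completeness, was 0.22, 0.07 and -0.14 in rmc and 0.21, 0.05 and -0.12 in WT, also in the order water, low N, high N. That of the actin probe sets was 0.17, 0.20 and 0.19 in rmc and 0.18, 0.14 and 0.08 in WT. The hybridization spikes, another set of array controls, averaged 9.70, 9.62 and 9.67 in rmc and 9.65, 9.66 and 9.58 in WT. With each array scaled to its poly-A spikes, high N minus water of HSC80 over both genotypes turned to 0.45, while the median of all probe sets moved by 0.61. The difference of -0.17 is thus one relative to the other transcripts on the array. Over the 15 arrays of a genotype, HSC80 had a correlation with the poly-A spikes of 0.70 in rmc and 0.42 in WT. The part of the spike readings in its difference was not tested. HSP17.4 differed between genotypes by -4.41 on that scale, against -4.28.

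**Figure D2:**
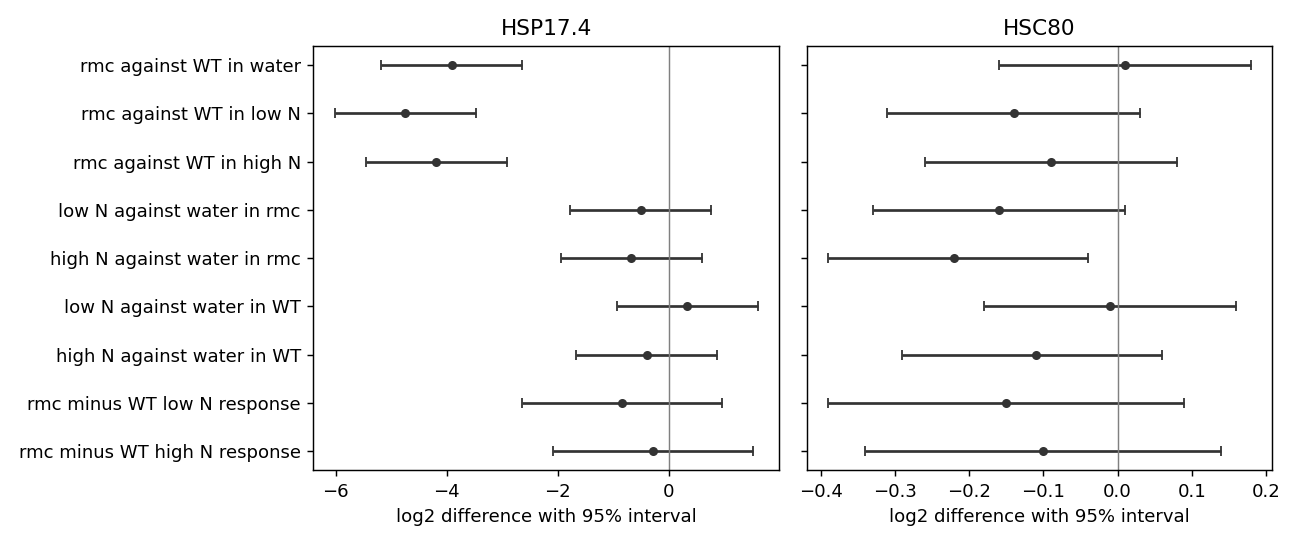
Log2 differences of HSP17.4 (left) and HSC80 (right) for the comparisons named on the vertical axis, with 95% intervals from the fit over all probe sets. The 3 rmc against WT differences of HSP17.4 lie between -4.75 and -3.91 and those of HSC80 between -0.14 and 0.01; the horizontal scales differ, and the intervals describe genes that were chosen by these values.

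HSP17.4 and HSC80 were set against each other array by array. Across the 15 rmc arrays their log2 signals had a Pearson correlation of -0.03, and across the 15 WT arrays of 0.64. Within single groups of 5 arrays it was -0.56 (water), -0.48 (low N) and 0.49 (high N) in rmc, and -0.30, 0.43 and 0.84 in WT, and over all 30 arrays with the group means taken out it was 0.15. In WT high N replicates 3 and 5 were the lowest arrays for both genes. All of these are descriptions of few arrays, each scaled as a whole.

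The other heat shock transcripts, and CLPP2 and FKBP12 of the chaperone list below, differed in how their signals ran with HSP17.4 within a genotype. MTSHP, the gene of a mitochondrial small heat shock protein, had a correlation of 0.87 with HSP17.4 over the rmc arrays and 0.01 over the WT arrays. It was looked up after the values were seen, since its symbol was not caught by the letters that define the chaperone list below, and its probe set lay below the filter. For vis1, a small heat shock protein gene known from fruit ripening, the correlations were 0.77 in rmc and 0.02 in WT, for the HSP90 gene Hsp90-1 0.72 and 0.02, and for ER-SHSP, a small heat shock protein of the endoplasmic reticulum, 0.59 and -0.14. Of these, vis1 read at or under the negative controls on 13 of 15 rmc and 14 of 15 WT arrays, and ER-SHSP on 9 and 10, so their correlations rest mostly on readings near background. HSP21 had 0.28 in rmc and 0.71 in WT, but read at or under the negative controls on 14 of 15 rmc and 2 of 15 WT arrays. On WT high N replicate 3 it read 0.03, where HSP17.4 had its lowest WT reading (5.99). HSP17-6 had 0.40 and -0.15, CLPP2 0.00 and 0.30, and the FKBP12 probe sets -0.33 and -0.09 in rmc and -0.12 and -0.09 in WT. HSP17.4 itself read at or under the negative controls on 6 of 15 rmc arrays, and on 0 of 15 WT arrays. Replicates 4 and 5 were its 2 highest arrays in 3 of 3 rmc groups, so the rmc correlations carry that replicate pattern. No difference between these correlations was tested.

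MTSHP is given array by array as the transcript with the highest of these values. In rmc water it read 4.99, 5.22, 4.09, 8.47 and 7.53, in rmc low N 5.22, 3.70, 4.61, 7.37 and 6.44, and in rmc high N 4.94, 5.20, 3.91, 5.14 and 7.10, so that replicate 5 was high in all 3 groups and replicate 4 in water and low N. In WT water the highest array was replicate 3, at 9.75 for MTSHP with the others at 3.64 to 4.98. On that array vis1 (5.44), ER-SHSP (6.35), HSP21 (5.96) and HSP17-6 (9.21) were also at the top of their group. HSP17.4 was not, at 8.00 in the middle of its group's 7.80 to 8.89. HSC80 was the highest of its group there, at 12.21.

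**Figure D3:**
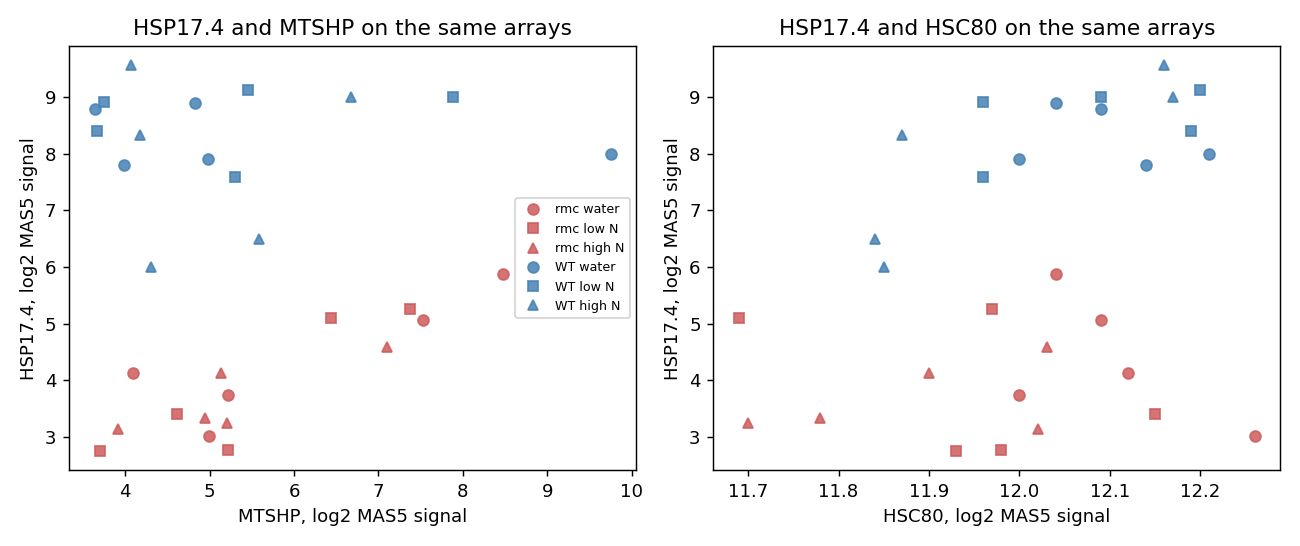
Log2 MAS5 signal of HSP17.4 against MTSHP (left) and against HSC80 (right), 1 point per array, with rmc in red and WT in blue and the treatment by symbol. The rmc points run upward with MTSHP (r = 0.87, n = 15) while the WT points do not (r = 0.01), and WT water replicate 3, at 9.75 for MTSHP, has an ordinary HSP17.4 signal of 8.00.

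Beside the 2 genes, the chaperone and heat stress list held 8 probe sets of 7 genes on the array, of which 5 probe sets of 4 genes passed the filter and were tested with limma over all 7528 probe sets. The list was set by the letters of symbols and synonyms, with earlier results of these data known. Beside heat shock protein genes it thus holds the gene of a protease subunit (CLPP2) and that of an isomerase (FKBP12). With high N over both genotypes 2 of 5 rose and 0 fell, at a background of 16.1% of all probe sets rising (34.1% called in either direction), and the list median was 0.16 against -0.01 for all probe sets tested. CLPP2, a subunit of the Clp protease, read 9.99 ± 0.06 in rmc high N against 9.81 ± 0.10 in rmc water, and 10.09 ± 0.12 in WT high N against 9.93 ± 0.04 in WT water (log2, SD, n = 5). It rose by 0.16 over both (SE 0.05, limma adjusted p = 0.00916), with 10 of 10 high N arrays above their water mean. FKBP12, a peptidyl-prolyl isomerase of the immunophilin family, rose by 0.20 by its first probe set (SE 0.06, limma adjusted p = 0.0103, 10 of 10 arrays). Its second probe set gave 0.08 without passing (limma adjusted p = 0.336).

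Hsp90-1 and HSP17-6, the tested relatives of the 2 genes, did not pass at high N in the fit described, though HSP17-6 did in some others. Hsp90-1 passed only under poly-A scaling (0.64, limma adjusted p = 0.00403), where the median of all probe sets moved by 0.61. In the fit described the difference of Hsp90-1 was 0.03 (SE 0.11, limma adjusted p = 0.831) beside the -0.17 of HSC80. That of HSP17-6, another small heat shock protein gene, was 0.29 (SE 0.14, limma adjusted p = 0.102) beside the -0.54 of HSP17.4 (95% interval -1.44 to 0.36). With array weights HSP17-6 rose by 0.37 (SE 0.11, limma adjusted p = 0.00813). Within a genotype 0 of 5 passed for low N or high N, at backgrounds of 0.0133% and 4.34% called in rmc and 0.0266% and 18.3% in WT. An unadjusted p under 0.05 for high N was reached by 2 of 5 in each genotype, near the shares of all probe sets (22.8% in rmc, 35.9% in WT), and for low N by 0 of 5 in each (4.54% and 5.78%). For low N over both genotypes 0 of 5 passed limma's test (background 0.0531%) and 0 had an unadjusted p under 0.05 (7.81% of all). When the N response of rmc was set against that of WT, 0 of 5 passed at low N or high N (backgrounds 0% and 0.0133%), and 0 had an unadjusted p under 0.05 at either (2.44% and 1.28% of all).

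Between genotypes the list gave 0 calls of 5 in limma's test over treatments, at a background of 12.3%, and 0 to 4 under the other settings. An unadjusted p under 0.05 was reached by 4 of 5, against 27.2% of all probe sets, and 4 of 5 lay below 0 (median -0.11, against 0.00 for all probe sets). Both counts include the 2 probe sets of 1 gene, FKBP12. In water, low N and high N alone 0 of 5 passed as well (backgrounds 0.478%, 1.95% and 1.09%), and 0, 2 and 0 had an unadjusted p under 0.05 (8.83%, 16.1% and 12.3% of all). The 2 in low N were the FKBP12 probe sets. Hsp90-1 was at 11.18 ± 0.28 in rmc and 11.38 ± 0.16 in WT (log2, SD, n = 15), a difference of -0.19 (SE 0.09, limma adjusted p = 0.141). HSP17-6 was at 8.88 ± 0.33 in rmc and 8.67 ± 0.31 in WT, a difference of 0.21 (SE 0.11, limma adjusted p = 0.227). The 15 rmc and 15 WT arrays of HSP17-6 overlapped widely (8.42 to 9.36 in rmc, 8.23 to 9.35 in WT).

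The list probe sets below the filter were read in a fit of all 10038 probe sets. HSP21, a chloroplast small heat shock protein gene, averaged 2.45 ± 0.88 in rmc and 4.11 ± 1.30 in WT (log2, SD, n = 15). In the fit with no filter on dim probe sets rmc minus WT was -1.66 (SE 0.39, limma adjusted p = 0.00573), the 1 call among the 8 list probe sets there, at a background of 10.5%. On 14 of 15 rmc arrays and 2 of 15 WT arrays it read at or under the negative controls, so the size of the difference is not resolved. ER-SHSP (0.01, 95% interval -0.84 to 0.86), vis1 (0.06, -0.85 to 0.98) and MTSHP (0.39, -0.82 to 1.60) did not pass.

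**Figure D4:**
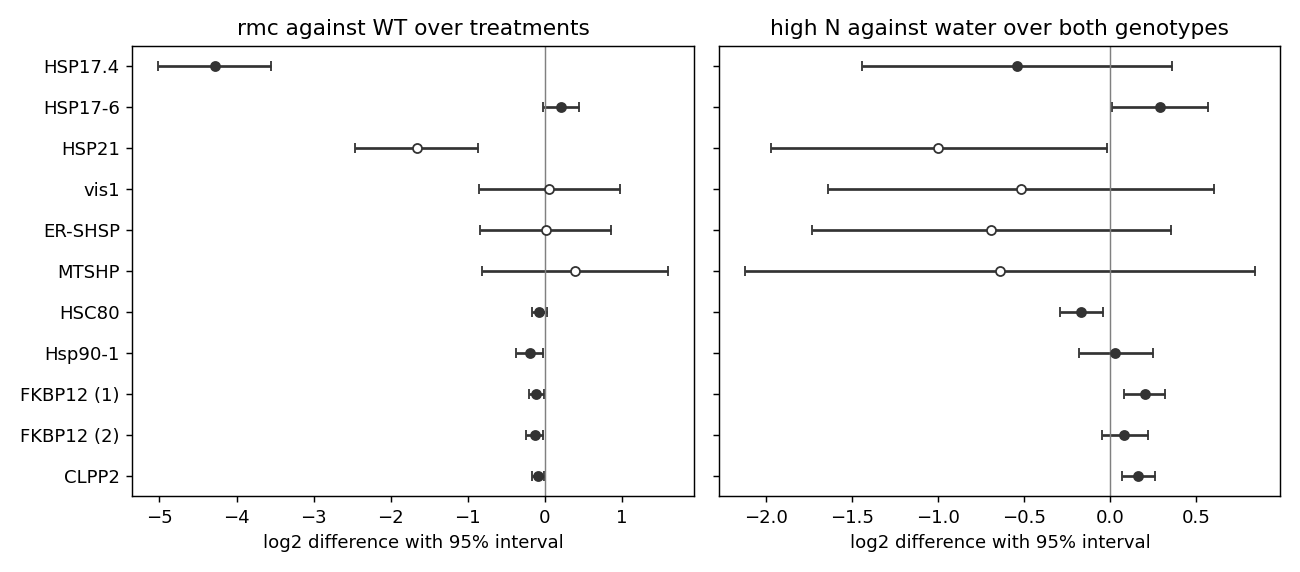
Log2 differences with 95% intervals for HSP17.4, HSC80, the 8 listed probe sets and MTSHP, for rmc against WT over treatments (left) and high N against water over both genotypes (right). Open circles are probe sets below the filter, from the fit without it; HSP17.4 (-4.28) and HSP21 (-1.66) stand left of 0 between genotypes, and the FKBP12 probe sets are numbered (1) and (2).

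The genes whose signal most resembled HSP17.4 over the 30 arrays, among 689 probe sets with a symbol, were LOC543717 (Pearson r = 0.87), GA3ox1, a gibberellin synthesis gene (0.83), LOC544264 (0.83), the ascorbate peroxidase gene APX1 (0.78) and the metallothionein gene MTA (0.77). Because rmc and WT arrays form separate clusters for HSP17.4, the values over all 30 arrays carry the genotype difference. Within the 15 WT arrays LOC543717, GA3ox1 and LOC544264 had r of 0.88, 0.77 and 0.92, but within the 15 rmc arrays -0.14, -0.14 and -0.13. APX1 and MTA had positive values in both, 0.64 and 0.40 in rmc and 0.56 and 0.68 in WT. Over the 30 arrays with the group means taken out, r was 0.33 for LOC543717, 0.39 for GA3ox1 and 0.46 for LOC544264. It was 0.66 for APX1 and 0.43 for MTA. The most opposite were psi14B (-0.85), IMP3 (-0.83) and ail (-0.81), with -0.09, -0.01 and -0.14 within rmc and -0.49, -0.44 and -0.38 within WT. With the group means taken out they had -0.31, -0.15 and -0.26.

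HSC80 had its highest correlations, over the same 30 arrays, with SAM1, a gene for S-adenosylmethionine synthetase (r = 0.91), ACT (0.89), TCTP, the gene of the translationally controlled tumour protein (0.84), LOC544144 (0.77) and app1 (0.73). They held within each genotype, with SAM1 at 0.89 in rmc and 0.94 in WT and ACT at 0.91 and 0.87, and after the group means were taken out (0.88 for both). The most opposite were UCP (-0.53), CGS and PMEU1 (-0.51 each). All of these values rest on signals scaled together on each array, so they are descriptions of the arrays.

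In the RefSeq gene order of tomato (assembly SLM_r2.1), 0 of the 4 tested among the 6 nearest genes to HSP17.4 that the array names passed between genotypes in limma's test (12.3% of all probe sets did). SPE4, with 38 genes in between on one side, was at 8.78 ± 0.53 in rmc and 8.94 ± 0.59 in WT (log2, SD, n = 15), a difference of -0.16 (SE 0.21, limma adjusted p = 0.654). LOC544282, with 4 genes in between on the other side, read 3.17 ± 1.85 in rmc and 2.53 ± 2.30 in WT and was below the filter. Beyond it RanBP1, with 29 genes in between, differed by -0.06 (SE 0.03, limma adjusted p = 0.184). Of the 6 nearest named to HSC80, 4 were tested and 2 passed, at the same background. SIP, with 16 genes in between, was lower in rmc (6.80 ± 0.93) than in WT (7.66 ± 0.73), a difference of -0.86 (limma adjusted p = 0.021). LOC606305, with 36 genes in between, was higher in rmc (7.87 ± 0.14) than in WT (7.71 ± 0.10), a difference of 0.15 (limma adjusted p = 0.027). All neighbours were looked up after the values of both genes were known.

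Root transcripts were read on the arrays, and so were some genes of the photosynthesis list, 1 of them bright. Of 7 root uptake probe sets, TIP read 11.66 to 12.46 and the phosphate transporter gene PT1 9.67 to 11.33 over all 30 arrays, and FRO1 was dim (0 to 7.18). Of 7 shoot photosynthesis probe sets, CAB5 stayed between 0 and 3.40 and PSBR was bright (8.60 to 11.03). Between them, LOC543978 read 5.41 to 7.21 and PSBO 2.46 to 8.38. Between genotypes 2 of 6 tested root uptake probe sets rose and 0 fell (4.72% of all rose, 12.3% were called), and 0 of 2 tested photosynthesis probe sets passed. With high N over both genotypes 2 of the 6 rose, and 1 of the 2 (PSBR, -1.07) fell, where 16.1% of all probe sets rose and 18% fell. The list of root tip and dividing cells (13 probe sets of 12 genes) had a mean that ranged from 6.76 to 9.10 over the rmc arrays and from 7.31 to 8.94 over the WT arrays, with summed linear signals of 5088 to 10852 in rmc and 5364 to 9812 in WT. Of its 12 tested probe sets 0 passed between genotypes (median -0.40), beside the -4.28 of HSP17.4. With high N over both genotypes 3 of these 12 rose and 2 fell, near the 34.1% called among all probe sets. Their median there was 0.58, against -0.01 for all probe sets tested, beside the -0.17 of HSC80. The part of these transcripts in either result was not tested. Over the probe sets tested, any pair of arrays from 1 group had a correlation of 0.848 to 0.979.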

How the data were processed

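The authors deposited log2 MAS5 signals, 1 column per array, made with MAS5 and Affymetrix Expression Console per the submitters' processing notes (versions not given in the sources used here). In linear form each array has a 2% trimmed mean of 500.0 to 500.1, so arrays were already scaled to one mean. A signal measures transcript bound to fixed probes. RNA (200 ng) was amplified and biotin-labelled, per the labels' protocols. Detection calls and scan dates are not used here.

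The table has 10209 probe sets. After 108 array and 63 reporter controls and the dimmest 25% (mean log2 under 5.612) were left out, 7528 were fitted with limma 3.58.1 in R 4.3.3 (6 group means, all 30 arrays, eBayes with intensity trend, Benjamini-Hochberg over 7528, threshold 0.05). Intervals are 95% intervals of that fit, and a fold is 2 to the power of a log2 difference. In simulated data with 200 of 7528 probe sets changed 2-fold, 84% were recovered for high N against water in WT and 95% for rmc against WT over treatments. Of the calls, 5.62% and 4.04% were false. The simulated noise was independent between probe sets, unlike deviations that real arrays share. Recovery of changes as small as those of CLPP2 and FKBP12 (0.16 and 0.20) was not simulated. A gene symbol (annotation of the array, which can be old) was given for 909 probe sets, of which 885 matched RefSeq. Negative controls are 23 tag and TrpnX probe sets, and poly-A spikes 36. Python 3.11.15, pandas 2.3.3 and matplotlib 3.10.9 served for tables and figures.

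The 2 genes and all lists were chosen with earlier results of these data known. Named are both genes, list probe sets that passed or were brightest in their family, and for each gene the 5 probe sets with the highest and 3 with the lowest correlation. The root uptake, shoot photosynthesis and root tip lists serve as tissue checks. Alternatives were 3 other scalings, a floor of 5, no filter, no trend, array weights, only the groups compared, the replicate number as a block, and leaving out each array. No other columns were present. Whether replicates are separate plants is not stated beyond the word biological.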

Additional observations from a re-analysis of the deposited data

Results flagged for a closer look

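Of 42 sets of 5 arrays (7 probe sets in 6 groups), 5 had an array far from the other 4 by Dixon's test, and chance alone marks about 1 in 20. HSP17-6 read 9.21 on WT water replicate 3, with the others at 8.33 to 8.57. CLPP2 read 9.98 on rmc water replicate 2 (others 9.74 to 9.79) and 9.76 on WT low N replicate 1 (others 10.02 to 10.07). FKBP12 read 9.85 by its first probe set on rmc low N replicate 5 (others 10.18 to 10.26) and 10.90 by its second on WT low N replicate 2 (others 10.69 to 10.72). HSP17.4 and HSC80 had 0 such arrays in their 6 groups each.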

How the results depend on the processing

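HSP17.4 rmc minus WT kept its direction under every setting run, from -4.44 (without WT high N replicate 3) to -4.14 (without WT high N replicate 1) over treatments when 1 array was left out. With a floor of 5 it was -3.17 over treatments, -3.54 in low N and -2.88 in high N, because the floor lifts the dim rmc readings. Quantile normalization shrank several HSC80 differences: high N minus water in rmc was -0.13 (against -0.22), low N minus water in rmc -0.07 (against -0.16), and rmc minus WT -0.06 in low N (against -0.14), -0.02 in high N (against -0.09) and -0.02 over treatments (against -0.07). Under poly-A scaling high N minus water of HSC80 turned to 0.45 over both genotypes, with 0.67 in rmc and 0.23 in WT. On that scale low N minus water was 0.15 over both genotypes and in each, high N minus low N was 0.51 in rmc and 0.08 in WT, rmc minus WT was -0.35 in water and in low N and 0.09 in high N and -0.20 over treatments, and the N response of rmc minus that of WT was 0.01 for low N and 0.44 for high N. Rises of CLPP2 (0.14 to 0.19 when 1 array was left out) and of the first FKBP12 probe set (0.16 to 0.22) with high N passed under all 9 other settings and all 20 omissions.

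Other list counts moved more, and the cause was not tested. Of 5, 5 passed under poly-A scaling for high N over both genotypes and in rmc. Array weights gave 2 for high N in WT and 4 for rmc against WT over treatments. That last count was 1 with quantile normalization (CLPP2, -0.12, limma adjusted p = 0.0371), 1 with no filter (HSP21) and 0 to 2 when 1 array was left out (CLPP2 passed without WT low N replicate 1, both FKBP12 probe sets without rmc high N replicate 2). HSP17-6 also passed for high N over both genotypes, making 3 against 2, with array weights and without WT water replicate 3, rmc water replicate 4 or rmc high N replicate 1.

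Counts over all probe sets depended on the setting. For high N in rmc (327) they were 206 with median centring, 6429 with poly-A scaling, 4 with only the groups compared, 1723 with array weights and 52 to 1028 when 1 array was left out (lowest without rmc high N replicate 5, highest without rmc high N replicate 1). For high N in WT (1374) they were 9 with poly-A scaling, 2757 with array weights and 467 to 1681 when 1 array was left out (lowest without WT high N replicate 5), and for high N over both genotypes (2566) 5879 with poly-A scaling and 1978 to 3087. For low N in WT (2) they were 0 with median centring, poly-A scaling, no filter or no trend, 1 with only the groups compared and 0 to 1 when 1 array was left out. For low N in rmc (1) they were 0 with only the groups compared and 1 to 2 when 1 array was left out. For low N over both genotypes (4) they were 0 with quantile normalization, median centring, only the groups compared or no filter, 2 with poly-A scaling, 67 with array weights and 0 to 7 when 1 array was left out. For rmc against WT they were, with poly-A scaling, 26 in low N, 46 in high N and 156 over treatments, against 147, 82 and 928. With only the groups compared they were 20 in water (against 36), 80 in low N and 5 in high N, and with array weights 223, 296, 657 and, over treatments, 2151. With 1 array left out they were 22 to 54 in water, 59 to 166 in low N, 23 to 142 in high N and 766 to 1250 over treatments.

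The labels do not say that a replicate number marks a shared source. Deviations of same-numbered arrays were correlated over 0.1 in 24 of 35 pairs (r from -0.615 to 0.653), and in all 5 pairs of a comparison only for rmc against WT in high N (0.109 to 0.463), where the replicate block gave 123 calls against 82 and 0 of the list as without it. In the other comparisons the numbers were not taken as a pairing. With the replicate block the counts were 613 for high N in rmc, 0 for low N in WT, 2 for low N over both genotypes and 1 of the list for rmc against WT over treatments (Hsp90-1, -0.19, limma adjusted p = 0.0445). Signal near the negative controls limits HSP17.4 in rmc, HSP21, vis1 and ER-SHSP. Whether signal near the top of the range limits HSC80 was not tested.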
